A study of Mus musculus with 128 samples.

Results

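The amino acid transporter genes described here are the 36 of 21225 probe sets on the array whose gene symbol begins with Slc3a, Slc7a, Slc36a, Slc38a or Slc43a followed by a number. They comprise 35 transporter genes, namely 2 Slc3a heavy chains, 10 Slc7a light chains, 5 Slc7a genes of the cationic amino acid transporter group, 4 proton-coupled Slc36a genes, 11 Slc38a genes and 3 Slc43a genes. The symbol rule also takes Slc7a6os, a gene transcribed from the strand opposite Slc7a6. Each was measured by 1 probe set in all 12 comparisons, so all 36 were tested and none was removed for a low signal.

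The study asked how brain gene expression differs between trisomic mice and their euploid littermates in 3 mouse models of Down syndrome, Ts1Cje, Ts65Dn and Dp16 (Dp(16)1/Yey). RNA from the forebrain at embryonic day 15.5 and from the cortex, hippocampus and cerebellum of males aged 6 to 7 months was hybridised to 128 Affymetrix mouse gene arrays from 65 animals. Embryos of both sexes were used, 5 per genotype for Ts1Cje, 6 per genotype for Dp16 and, for Ts65Dn, 7 euploid with 6 trisomic, and every adult group held 5 males, each of which gave all 3 regions. The labels list 1 more euploid and 1 more trisomic Ts65Dn embryo than the series' design text, without saying which, and all were used. Ts1Cje mice carry an additional copy of MMU16 from Scaf4 to Zbtb21 translocated to MMU12 and have lost 1 copy of a few distal MMU12 genes. Ts65Dn mice carry MMU16 from Mrpl39 to Zbtb21, together with MMU17 from Scaf8 to Pde10a, on an extra chromosome that segregates freely, and Dp16 mice have a direct duplication from Lipi to Zbtb21. Ts1Cje and Dp16 trisomy came from the father in matings with C57BL/6J females according to the labels, with C57BL/6N females also named in the methods. Ts65Dn trisomy came from the mother, in matings with B6EiC3Sn.BLiAF1 hybrid males. No transporter gene lies inside a triplicated segment: Slc7a4 on MMU16 and Slc3a1 on MMU17 are on the same chromosomes but outside the segments.

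Amino acids cross membranes through carriers that differ in the residues they accept and in the gradient they use. Slc3a proteins are single-pass heavy chains that bring an Slc7a light chain to the surface, and the pair then exchanges one amino acid for another. Members of the Slc7a cationic group carry arginine and lysine without a heavy chain, Slc36a proteins move small amino acids with protons, Slc38a proteins move glutamine and other neutral amino acids, in many cases with sodium, and Slc43a1 and Slc43a2 carry large neutral amino acids by facilitated diffusion. When amino acids run short, cells translate the transcription factor Atf4, which switches on synthesis enzymes, tRNA synthetases and several transporters through amino acid response elements.

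The values are log2 signals that the authors normalised separately for each model and tissue. Array medians were 8.52 to 8.55 in Ts1Cje forebrain, 7.24 to 7.29 in Ts65Dn forebrain, 7.39 to 7.48 in Dp16 forebrain and 6.45 to 6.74 in the adult regions, so levels are compared within a table only. In bulk tissue, fewer cells of a type and less RNA per cell cannot be told apart. Some libraries stood apart. The Ts65Dn hippocampus library TS18 had the lowest mean correlation with the other arrays of its table (0.9715, next 0.9821) and went against its tissue label. Its summed linear signal over the 8 markers of hippocampal neurons was 1767, against 3403 to 4223 in the other 9 libraries, its sum over the 10 markers of the dorsal telencephalon was 810 against 3780 to 4640, and its sum over the 14 markers of brain endothelial cells was the highest, 5970. Results that rest on Ts65Dn hippocampus are therefore given with and without TS18, and counts include it unless stated. The Ts65Dn forebrain library TS01 (mean correlation 0.9839, next 0.9929) had the highest summed signal for the 10 markers of meninges and fibroblasts, 14783 against 2439 to 5976 in the other 12 embryos, and Eup13 in Dp16 forebrain (0.9815) and Eup347 in Ts1Cje cortex (0.9732) also had the lowest correlations in their tables.

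Trisomy was called to change 2 of the 36 genes. The heavy chain Slc3a1 was lower in Ts65Dn forebrain, and the glutamine transporter Slc38a5 was higher in Ts65Dn adult cortex and hippocampus. The call in hippocampus was lost without TS18 (adjusted p = 0.104) and in 9 of 10 cases with 1 animal left out. Genes are called DEX at a false discovery rate (FDR) below 10% by limma, adjusted over all probe sets of the 12 comparisons. A gene is called MDG, the study's looser rule, at an unadjusted P below 0.05 with a fold change (FC) above 1.2 or below 0.8. The members called MDG were 1 in Ts65Dn forebrain, 2 in Ts65Dn cortex, 3 in Ts65Dn hippocampus and 1 in Ts65Dn cerebellum, and 0 in the other 8 comparisons. In the Ts1Cje and Dp16 tables limma called no member DEX. Of the 36, Ts1Cje had 3 members at an unadjusted P below 0.05 in forebrain, 0 in cortex, 4 in hippocampus and 3 in cerebellum, and in the same order Ts65Dn had 2, 3, 3 and 3 and Dp16 had 2, 2, 3 and 1. As shares of the 36, these were 8.33%, 0%, 11.1% and 8.33% for Ts1Cje, and 5.56%, 8.33%, 8.33% and 8.33% for Ts65Dn. For Dp16 they were 5.56%, 5.56%, 8.33% and 2.78%. The shares of all probe sets at that P were 4.39%, 2.88%, 10.3% and 9.06% for Ts1Cje, and 4.74%, 6.07%, 4.69% and 6.87% for Ts65Dn. For Dp16 they were 5.91%, 4.86%, 10.1% and 5.01%. The members lay near the background in several tables, among them Dp16 forebrain, Ts65Dn forebrain, Dp16 cortex and Ts1Cje hippocampus and cerebellum. A single gene is 2.78% of the 36, so the departures in other tables amount to few genes. These shares were not tested. The methods' t-test called 0 members in any comparison.

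Over all probe sets, the share called DEX in forebrain was 0.259% in Ts1Cje, 0.264% in Ts65Dn and 0.0895% in Dp16. In cortex it was 0.0424%, 0.349% and 0.00942% in the same order, in hippocampus 0.316%, 0.132% and 0.066%, and in cerebellum 0.429%, 0.297% and 0.0188%. The share called MDG in forebrain was 0.349% in Ts1Cje, 0.872% in Ts65Dn and 1.96% in Dp16, in cortex 1.28%, 1.47% and 1.82%, in hippocampus 1.15%, 2.71% and 1.79%, and in cerebellum 1.94%, 1.6% and 1.79%. Over the 12 comparisons together, 7 of 432 tests of members were MDG (1.62%), beside 1.56% over all probe sets. The median log2 change over the 36 genes lay between -0.04 and 0.04 in the 12 comparisons, beside medians of -0.02 to 0.03 over all probe sets. Without Eup13 the median in Dp16 forebrain moved from -0.04 to -0.13, with 24 of the 36 genes lower. The table as a whole also changed, with 11.1% of all probe sets MDG without Eup13. Its median over all probe sets without Eup13 is not given, so no decrease particular to the members is shown. The share of the 36 genes with a lower value in trisomic animals ran from 36.1% in Ts65Dn hippocampus to 75% in Dp16 cortex. In Dp16 it was 58.3% in forebrain, 75% in cortex, 63.9% in hippocampus and 72.2% in cerebellum, beside 47.5%, 53.4%, 54.8% and 54.9% of all probe sets, and in Ts1Cje forebrain it was 66.7% beside 52.2%. These shares count signs only and were not tested. Where trisomic and euploid groups are said below not to overlap, this is a description only. The share of all probe sets without such overlap is not given. By the exact permutation test, 5 against 5 animals that do not overlap have p = 0.00794, and 432 tests of members were made.

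**Figure D1:**
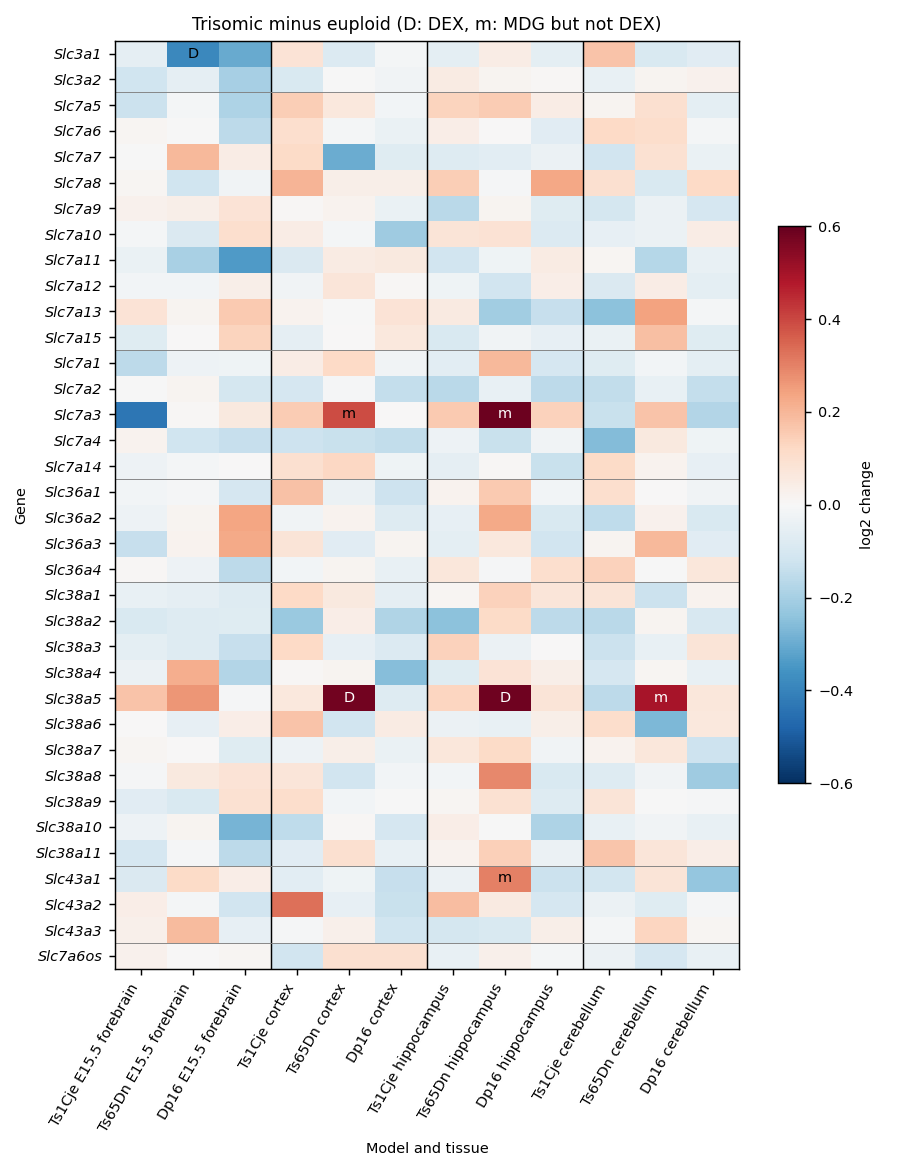
Log2 change, trisomic minus euploid, of the 36 genes (rows, grouped by role) in each model and tissue (columns), with D for genes called DEX and m for genes called MDG but not DEX. The calls lie in the Ts65Dn columns, and Slc38a5 is the row with calls in 3 adult regions.

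Of the heavy chains, Slc3a2 (CD98hc), the partner of Slc7a5, Slc7a8, Slc7a10 and Slc7a11 at the plasma membrane, had log2 changes between -0.20 and 0.05 in the 12 comparisons and an unadjusted P above 0.05 in each. Slc3a1 (rBAT, chr17:85028347-85064241 on GRCm38.p6), the partner of Slc7a9 in renal cystine uptake, was the member called in the embryo. In Ts65Dn forebrain the signals of Slc3a1 were 6.24, 6.39 and 6.67 (lowest, median and highest of 7) in euploid embryos and 5.86, 6.06 and 6.13 (of 6) in trisomic embryos. Every trisomic embryo lay below every euploid one. The log2 change was -0.39 ± 0.07 (SE), an FC of 0.765, with an adjusted p of 0.0455 by limma, and the exact permutation test over the 13 embryos gave p = 0.00117, two-sided. Leaving out Eup06, Eup11, TS08 or TS09 ended the DEX call, with an adjusted p of up to 0.112, while the log2 change stayed between -0.42 and -0.34 with any 1 embryo left out, and without TS01 it was -0.39 with an adjusted p of 0.0732. The mean signal of this probe set ranked at percentile 35.4 of its table. Hybridisation can compress fold changes of dim probe sets, which was not measured here.

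In Dp16 forebrain the values of Slc3a1 were 6.47, 6.62 and 7.13 in euploid and 6.12, 6.34 and 6.65 in trisomic embryos (lowest, median and highest of 6). The groups overlapped, and the euploid maximum came from Eup13, the library with the lowest correlation in the table. The log2 change was -0.30 ± 0.12 with an unadjusted P of 0.0195 and an adjusted p of 0.722 by limma, and -0.21 without Eup13. In Ts1Cje forebrain Slc3a1 was 7.46 to 7.60 in euploid and 7.41 to 7.52 in trisomic embryos. The difference of its trisomy effect between Ts1Cje and Ts65Dn forebrain was 0.33 ± 0.13 with an adjusted p of 0.901, so the models were not shown to differ. In Ts1Cje cerebellum Slc3a1 went the other way, at 5.30, 5.40, 5.19, 5.07 and 5.18 in euploid and 5.36, 5.33, 5.37, 5.44 and 5.50 in trisomic animals. These groups overlapped, and the log2 change of 0.17 ± 0.07 had an adjusted p of 0.775.

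None of the 10 light chains was called DEX or MDG. Their log2 changes ran from -0.34, for the cystine and glutamate exchanger Slc7a11 in Dp16 forebrain, to 0.24, for Slc7a13 in Ts65Dn cerebellum. The Slc7a11 values in Dp16 forebrain ranged from 7.33 to 8.44 in euploid and 6.96 to 8.10 in trisomic embryos and overlapped widely (unadjusted P = 0.131 by limma). Slc7a5 (LAT1), which takes leucine and other large neutral amino acids across the blood-brain barrier, was 9.49, 9.52, 9.53, 9.53 and 9.45 in euploid and 9.65, 9.58, 9.72, 9.69 and 9.56 in trisomic Ts1Cje hippocampus. The groups of Slc7a5 did not overlap, yet the log2 change was only 0.14 ± 0.05 with an adjusted p of 0.696.

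Slc7a7 (y+LAT1), which exports cationic amino acids, was 6.38, 6.57 and 6.70 (lowest, median, highest) in 7 euploid and 6.56, 6.77 and 6.86 in 6 trisomic Ts65Dn embryos. The log2 change of Slc7a7 was 0.20 ± 0.07 with an adjusted p of 0.674, and in adult Ts65Dn cortex it had the opposite sign (-0.30 ± 0.11, adjusted p = 0.733). Slc7a10 (Asc-1), a carrier of serine and glycine, was 8.40, 8.44, 8.30, 8.45 and 8.28 in euploid and 8.16, 8.20, 8.08, 7.92 and 8.44 in trisomic Dp16 cortex. One trisomic animal, TS281, lay within the euploid range of Slc7a10, and the log2 change was -0.21 ± 0.09 (adjusted p = 0.785). Slc7a8 (LAT2), another carrier of neutral amino acids, was 0.23 ± 0.09 higher in trisomic Dp16 hippocampus (unadjusted P = 0.0251, adjusted p = 0.746).

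The cerebellum showed opposite values for Slc7a13, a light chain that carries aspartate and glutamate. In Ts1Cje it was 3.66, 3.63, 3.69, 3.62 and 3.77 in euploid and 3.51, 3.44, 3.47, 3.36 and 3.37 in trisomic animals, a log2 change of -0.24 ± 0.06 (adjusted p = 0.356). In Ts65Dn it was 3.46, 3.34, 3.40, 3.51 and 3.49 in euploid and 3.60, 3.69, 3.71, 3.82 and 3.59 in trisomic animals, a log2 change of 0.24 ± 0.06 (adjusted p = 0.381). In both tables the groups did not overlap, in opposite directions, at a signal near percentile 9 of the array. The share of all probe sets without overlap is not given, and neither change was called. The difference of the 2 effects was -0.48 with an adjusted p of 0.145 by limma, and passed the threshold when each model kept its own spread (0.0424).

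Among the cationic group, Slc7a3 (CAT3), an arginine transporter of neurons and embryonic tissue, had the widest range of changes, from -0.43 in Ts1Cje forebrain to 0.59 in Ts65Dn hippocampus. In Ts65Dn cortex its values were 6.99, 6.70, 6.91, 7.14 and 6.88 in euploid and 7.50, 7.30, 7.06, 7.50 and 7.22 in trisomic animals. TS4 alone lay within the euploid range, and the log2 change was 0.39 ± 0.10, an FC of 1.31 called MDG but not DEX (adjusted p = 0.370). In Ts65Dn hippocampus Slc7a3 was 6.28, 6.47, 6.56, 6.45 and 6.31 in euploid and 7.98, 6.74, 6.73, 7.00 and 6.58 in trisomic animals. The groups were apart, and the highest value came from TS18, the library with a low signal of hippocampal markers. With all 10 animals the log2 change was 0.59 ± 0.21 (adjusted p = 0.705), and without TS18 it was 0.35 ± 0.10 (adjusted p = 0.517, still MDG).

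Of the other cationic group members, Slc7a4 was 7.58, 7.45, 7.55, 7.66 and 7.55 in euploid and 7.22, 7.35, 7.19, 7.37 and 7.35 in trisomic Ts1Cje cerebellum. Its groups did not overlap, and the log2 change of -0.26 ± 0.07 had an unadjusted P of 0.00169 and an adjusted p of 0.356 by limma. Slc7a4 lies on MMU16 at chr16:17572018-17576890, outside the segment triplicated in Ts1Cje mice. Slc7a2 (CAT2) was 8.23, 8.35, 8.14, 8.34 and 8.23 in euploid and 8.10, 8.08, 8.20, 8.10 and 8.04 in trisomic Dp16 hippocampus. The log2 change of Slc7a2 was -0.16 ± 0.06 there (adjusted p = 0.744) and -0.16 ± 0.06 in Ts1Cje hippocampus (adjusted p = 0.744), with TS277 inside the euploid range in Dp16. Slc7a1 (CAT1) and Slc7a14 had unadjusted P values above 0.05 in all 12 comparisons.

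Slc7a3 in Ts1Cje forebrain had a within-group SD of 1.10, at the top of the spreads of all probe sets in that table. Its values fell into 2 sets that followed the embryo numbers in the titles and not the genotype or the sex. The 5 embryos numbered 01 to 07 had signals of 8.56 (TS01), 8.84 (TS04), 8.54 (Eup05), 8.60 (TS06) and 8.95 (Eup07). The 5 embryos numbered 09 to 15 had signals of 10.61 (Eup09), 10.68 (Eup11), 10.78 (TS12), 10.60 (TS14) and 10.77 (Eup15). The lower set held 2 euploid and 3 trisomic embryos and the higher set 3 and 2, and the overall log2 change was -0.43 ± 0.57 (adjusted p = 0.924). Within the sets the trisomic mean minus the euploid mean was -0.08 in the lower numbers and 0.00 in the higher numbers. The split was noticed after the values were seen, and the labels do not say what the numbers stand for, so litter, dam, dissection and hybridisation cannot be told apart and nothing was tested.

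The same split separated other members and amino acid response genes. Over all probe sets, 4.02% were higher in the higher numbers without overlap and 3.56% were lower. The sets were drawn on Slc7a3, so it is left out of the count. Among the other 35 genes 5 (14.3%) were higher without overlap, namely Slc7a1, Slc7a5, Slc3a2, Slc7a14 and Slc7a10, and none was lower. Slc7a1 ranged from 10.43 to 10.55 in the lower and 10.83 to 11.18 in the higher numbers, and Slc7a5 from 12.02 to 12.05 and 12.32 to 12.53. Its heavy chain Slc3a2 ranged from 12.18 to 12.29 in the lower and 12.47 to 12.68 in the higher numbers. Slc7a11 (9.46 to 9.61 and 9.56 to 9.73) and Slc38a2 (12.11 to 12.24 and 12.14 to 12.32), which are also known Atf4 targets, overlapped between the sets.

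Of 28 amino acid response (Atf4) genes, none of which is a transporter counted above, 18 (64.3%) were higher in the higher embryo numbers without overlap and none was lower. Mthfd2, a mitochondrial folate enzyme, ranged from 8.88 to 9.07 and from 9.93 to 10.08. Asns, asparagine synthetase, ranged from 10.99 to 11.20 and from 11.86 to 12.22. Chac1, which breaks down glutathione, ranged from 8.86 to 8.91 and from 9.67 to 10.00, and Atf4 itself from 9.08 to 9.27 and from 9.56 to 9.68. The glycine transporter Slc6a9 (10.61 to 10.96 and 11.51 to 11.69) and the serine and alanine transporter Slc1a4 (10.52 to 10.80 and 11.22 to 11.33) were also apart, among 3 of 16 Slc6 and 1 of 7 Slc1 genes, whereas 0 of 24 genes of amino acid sensing by mTORC1 were. In the same direction of numbers, 6 of 8 markers of cycling progenitors were lower without overlap, among them Mki67 (10.17 to 10.37 and 9.68 to 9.93), as were 4 of 6 erythroid markers, among them Hbb-bs (12.39 to 12.51 and 11.33 to 12.19). Of the other lists, 3 of 11 astrocyte markers (27.3%), 2 of 8 neuron markers (25%), 2 of 10 oligodendrocyte markers (20%) and 2 of 14 endothelial markers (14.3%) were higher and 3 of 10 dorsal telencephalon markers (30%) lower without overlap. The part of these markers in the split was not tested.

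**Figure D2:**
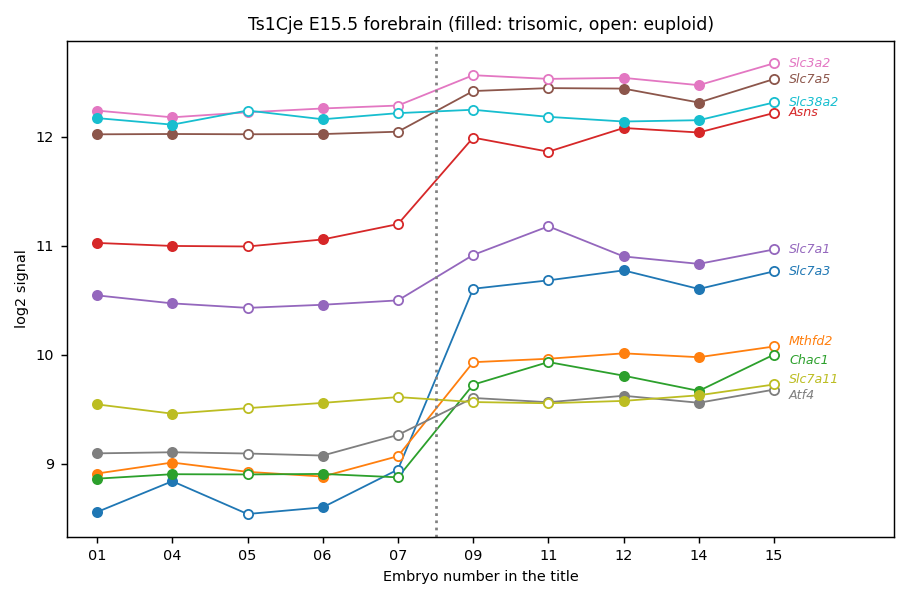
Log2 signal of 6 transporter genes and 4 amino acid response genes in each Ts1Cje embryo, ordered by the number in its title, with trisomic embryos filled, euploid embryos open and lines joining the values of 1 gene. Slc7a3 lies between 8.54 and 8.95 left of the dotted line and between 10.60 and 10.78 right of it in both genotypes, while Slc38a2 and Slc7a11 overlap.

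Because some transporter genes and amino acid response genes moved together, the promoters of both lists were searched. The window ran from 250 bases before to 50 after the RefSeq start on GRCm38.p6. Both strands were searched for the amino acid response element TGATGNAA. It was found in 1219 of 27025 genes (4.51%), in 2 of the 26 transporter genes with a promoter in the table (7.69%) and in 9 of 25 amino acid response genes (36%). The 2 transporters were Slc7a11 and Slc7a7, and neither was among the members that separated the embryo sets. For the members that did, Slc7a3, Slc7a1, Slc7a5, Slc3a2, Slc7a14 and Slc7a10, no match is listed. Members without a promoter in the table could not be searched. Which of these members had a promoter is not given, so they are not shown to lack the element. The 3 sequences below are Slc7a11, whose 2 matches lie on opposite strands, and Asns and Chac1, which separated the embryo sets, and the capitals mark the matches.
Slc7a11 (chr3:50443564-50443863, minus strand): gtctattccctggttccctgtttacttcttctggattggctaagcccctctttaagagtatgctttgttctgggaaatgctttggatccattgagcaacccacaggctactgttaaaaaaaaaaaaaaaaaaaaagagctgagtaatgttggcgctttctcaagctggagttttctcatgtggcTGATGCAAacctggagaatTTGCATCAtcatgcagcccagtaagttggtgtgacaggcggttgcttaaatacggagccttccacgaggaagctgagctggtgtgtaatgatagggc
Asns (chr6:7693160-7693459, minus strand): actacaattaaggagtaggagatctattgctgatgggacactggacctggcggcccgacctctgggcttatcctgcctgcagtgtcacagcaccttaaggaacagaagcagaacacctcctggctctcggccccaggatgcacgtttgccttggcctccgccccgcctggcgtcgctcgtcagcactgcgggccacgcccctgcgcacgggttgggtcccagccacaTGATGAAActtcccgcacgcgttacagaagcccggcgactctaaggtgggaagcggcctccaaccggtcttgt
Chac1 (chr2:119350992-119351291, plus strand): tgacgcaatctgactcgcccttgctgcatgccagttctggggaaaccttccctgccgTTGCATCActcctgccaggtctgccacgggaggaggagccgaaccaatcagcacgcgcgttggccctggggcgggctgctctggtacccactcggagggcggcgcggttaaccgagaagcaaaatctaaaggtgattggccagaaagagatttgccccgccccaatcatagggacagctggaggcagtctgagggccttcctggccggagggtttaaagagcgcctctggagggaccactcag
A match describes these letters in this window only.

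In the other embryos Slc7a3 covered a narrower range, from 5.57 to 6.45 in Ts65Dn and from 5.86 to 6.78 in Dp16 forebrain. A split by animal number recurred in Dp16 adults, between the 4 animals TS254, TS255, Eup260 and Eup263 and the 6 animals from Eup274 to TS281. In cerebellum Slc7a3 was 5.45 (TS254), 5.97 (TS255), 6.08 (Eup260) and 6.03 (Eup263) in the lower numbers. In the higher numbers it was 7.26 (Eup274), 7.15 (TS277), 7.09 (TS278), 7.12 (Eup279), 7.14 (Eup280) and 7.09 (TS281). The sets were apart by a narrower margin in cortex (6.87 to 7.05 and 7.07 to 7.64) and hippocampus (6.48 to 6.99 and 7.13 to 7.61) of the same animals. Within the sets the log2 change of Slc7a3 in the lower and the higher numbers was -0.34 and -0.06 in cerebellum, -0.11 and 0.07 in cortex and 0.35 and -0.01 in hippocampus.

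In these Dp16 sets the share of all probe sets that were higher in the higher numbers without overlap was 0.448% in cortex, 0.339% in hippocampus and 0.612% in cerebellum. Of the 35 genes other than Slc7a3, on which these sets too were drawn, 0 were apart in cortex and hippocampus, and 2 (5.71%) were in cerebellum, Slc7a1 (7.89 to 8.12 and 8.20 to 8.47) and Slc7a5 (9.26 to 9.46 and 9.55 to 9.89). Of the 28 amino acid response genes 3 (10.7%) were apart in cortex, 5 (17.9%) in hippocampus and 7 (25%) in cerebellum. Atf4 was apart in all 3 regions, and in cerebellum Asns (9.70 to 9.96 and 10.24 to 10.50) and Mthfd2 (6.68 to 6.98 and 7.36 to 7.58) were. The adult regions come from the same animals, so the 3 regions are not independent. In adult Ts1Cje cerebellum Slc7a3 ranged from 6.76 to 7.40, and in Ts65Dn cerebellum 1 animal, TS5, was at 7.05 while the other 9 lay between 5.40 and 6.23. Each set held both genotypes, and with the sets as a covariate limma called 0 members DEX in these 4 tables, as without it.

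**Figure D3:**
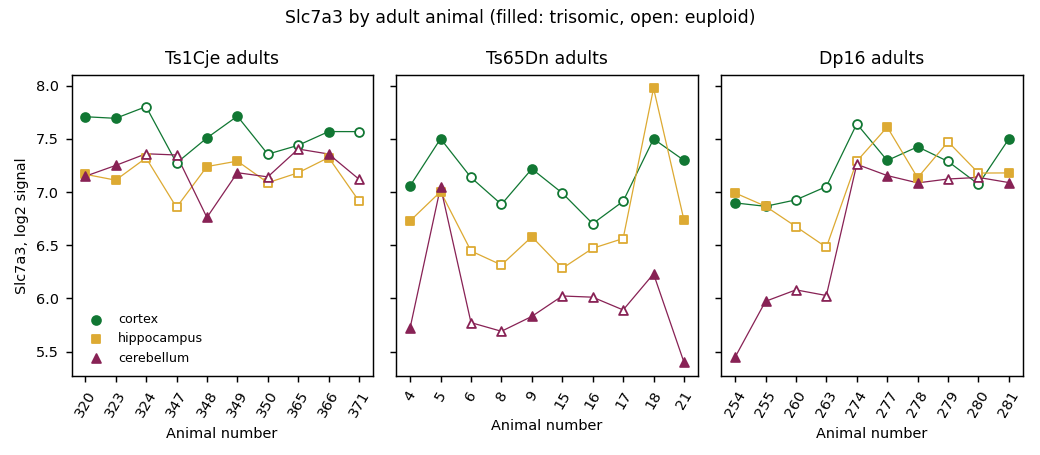
Log2 signal of Slc7a3 in the cortex, hippocampus and cerebellum of each adult animal (x axis, animal number in the title) in the 3 models, with trisomic animals filled, euploid animals open and lines joining the values of 1 region. In Dp16 cerebellum the 4 animals with the lowest numbers (TS254 to Eup263) lie between 5.45 and 6.08 and the other 6 (Eup274 to TS281) between 7.09 and 7.26.

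The 4 proton-coupled Slc36a genes were called in no comparison. Their log2 changes ran from -0.15 for Slc36a4 to 0.24 for Slc36a2, both in Dp16 forebrain. Slc36a1 (PAT1), which exports small amino acids from lysosomes, changed by -0.12 to 0.18 with unadjusted P values above 0.05 throughout. Slc36a3 in Ts1Cje forebrain had an unadjusted P of 0.0428 (log2 change -0.14 ± 0.06, adjusted p = 0.789).

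Slc38a5 (SNAT5, chrX:8271381-8280179 on GRCm38.p6), a sodium-coupled carrier that moves glutamine, serine and glycine in either direction, gave the most frequent calls. In Ts65Dn cortex its signals were 6.41, 6.09, 6.15, 6.38 and 6.27 in euploid and 7.09, 6.87, 6.74, 6.61 and 6.88 in trisomic animals. Every trisomic animal lay above every euploid one. The log2 change was 0.58 ± 0.09, an FC of 1.49, with an adjusted p of 0.0286 by limma, and the exact permutation test gave p = 0.00794, the smallest that 5 against 5 animals allow. The call held with each animal left out in turn (adjusted p up to 0.0845).

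In Ts65Dn hippocampus Slc38a5 was 5.97, 6.12, 6.55, 6.23 and 6.35 in euploid and 6.83, 6.84, 6.92, 6.82 and 6.71 in trisomic animals. The groups were again apart, and TS18 lay among the other trisomic animals. The log2 change was 0.58 ± 0.11 with an adjusted p of 0.0707 by limma, and without TS18 it was 0.58 ± 0.11 with an adjusted p of 0.104, which is above the threshold. Without TS18, 0.151% of all probe sets were DEX and 3.88% MDG, and the members called MDG were Slc38a5, Slc7a3, Slc43a1 and Slc38a8. The call was lost in 9 of 10 cases with 1 animal left out and held only without Eup17, with an adjusted p of up to 0.192.

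In Ts65Dn cerebellum Slc38a5 was 6.13, 6.14, 6.20, 5.78 and 6.12 in euploid and 6.77, 6.66, 6.42, 6.32 and 6.68 in trisomic animals. These groups did not overlap either, and the log2 change was 0.49 ± 0.10, an FC of 1.41, called MDG but not DEX (unadjusted P = 0.000314, adjusted p = 0.142 by limma). With 1 animal left out the log2 change ranged from 0.42 without Eup6 to 0.56 without TS5, and the adjusted p from 0.0607 without TS5 to 0.296. The 3 regions came from the same 5 trisomic and 5 euploid males. In Ts65Dn forebrain Slc38a5 was 7.59, 8.13 and 8.24 (lowest, median, highest of 7) in euploid and 7.92, 8.27 and 8.48 (of 6) in trisomic embryos, overlapping, with a log2 change of 0.26 ± 0.12 (adjusted p = 0.804). Without TS01 this change was 0.29 ± 0.13 by limma (unadjusted P = 0.0482, adjusted p = 0.778). Slc38a5 was then MDG in forebrain, beside 1.11% of all probe sets.

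In Ts1Cje and Dp16 Slc38a5 was called in no tissue. In Ts1Cje the log2 change of Slc38a5 was 0.07 ± 0.10 in cortex, 0.13 ± 0.08 in hippocampus and -0.16 ± 0.07 in cerebellum, and in Dp16 it was -0.08 ± 0.12, 0.08 ± 0.09 and 0.07 ± 0.09. In Ts1Cje forebrain it was 9.07, 9.39, 9.26, 9.18 and 9.25 in euploid and 9.51, 9.42, 9.43, 9.28 and 9.37 in trisomic embryos, a log2 change of 0.17 ± 0.06 (unadjusted P = 0.0137, adjusted p = 0.683). In Dp16 forebrain the log2 change was -0.01 ± 0.18, and -0.16 ± 0.13 without Eup13.

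The difference of the trisomy effect on Slc38a5 between models was tested in 1 fit per tissue. In cerebellum the effect in Ts1Cje minus that in Ts65Dn was -0.65 ± 0.13 with an adjusted p of 0.0576 by limma, the only member called in this contrast, where 0.0848% of all probe sets were called. In Ts1Cje cerebellum the values were 6.08, 5.97, 6.00, 5.95 and 5.77 in euploid and 5.83, 5.82, 5.62, 5.84 and 5.86 in trisomic animals. This call was lost without Eup324, Eup347, Eup350, Eup365 or TS348 of Ts1Cje, or Eup6, TS9, TS18 or TS21 of Ts65Dn cerebellum. The other 11 contrasts between models called 0.033% of all probe sets and no member. In cortex the effect on Slc38a5 in Ts65Dn minus that in Dp16 was 0.66 ± 0.15 (unadjusted P = 0.000171, adjusted p = 0.275), and in hippocampus 0.50 ± 0.13 (adjusted p = 0.514), or 0.50 ± 0.14 without TS18 (adjusted p = 0.503).

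**Figure D4:**
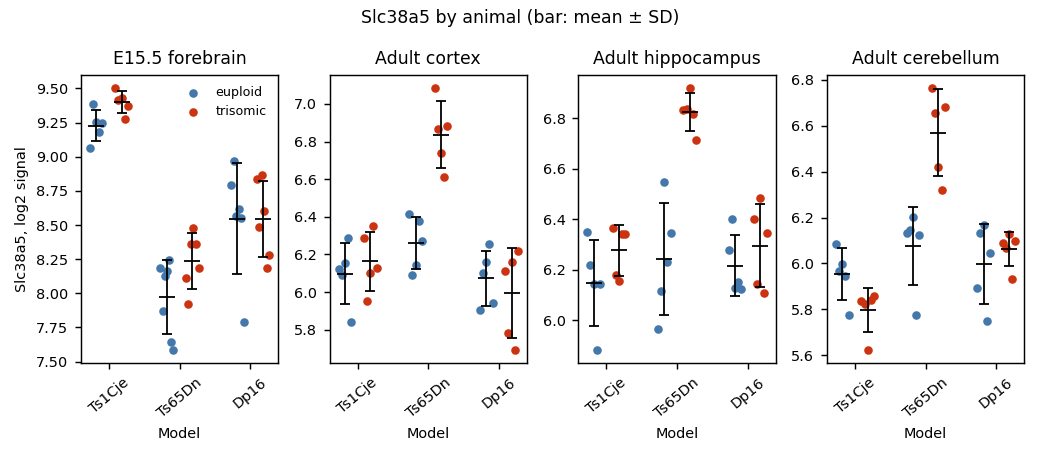
Log2 signal of Slc38a5 in each animal (points) with the group mean ± SD (bars) by model, in forebrain and 3 adult regions, each panel with its own y axis. In the 3 adult Ts65Dn panels every trisomic point lies above every euploid one, at 6.61 to 7.09 against 6.09 to 6.41 in cortex.

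Slc38a5 is known from brain endothelial cells and from astrocytes, and markers of both were followed. In Ts65Dn cortex 14 of 14 endothelial markers were higher in trisomic animals (median log2 change 0.13), in hippocampus 13 of 14 (0.08), in cerebellum 11 of 14 (0.08) and in forebrain 7 of 14. Without TS18 the hippocampus count was 7 of 14 (median 0.01). The log2 change of Slc38a5 in hippocampus was 0.58 with and without TS18. The summed linear signal of the 14 endothelial markers ranged from 4810 to 5322 in euploid and 5088 to 5923 in trisomic cortex. In hippocampus this sum ranged from 3435 to 4401 and 3646 to 5970 (3646 to 4811 without TS18). In cerebellum it ranged from 4404 to 5184 and 4818 to 5674. The receptor Kdr was called DEX in Ts65Dn cortex (log2 change 0.38, adjusted p = 0.0908), and had log2 changes of 0.44 in hippocampus (0.40 without TS18) and 0.29 in cerebellum. The 14 markers had log2 changes from 0.01 (Tie1) to 0.38 (Kdr) in Ts65Dn cortex, with 5 at an unadjusted P below 0.05, beside 6.07% of all probe sets, and the junction gene Cdh5 was at 0.18 (unadjusted P = 0.0163, adjusted p = 0.703). Endothelial markers were also mostly higher in the adult regions of the other models. In Ts1Cje 11 of 14 were higher in cortex (median 0.10), 11 in hippocampus (0.14, with 6 at an unadjusted P below 0.05 and 1 called DEX) and 12 in cerebellum (0.08), and in Dp16 8, 10 and 12 were (0.03, 0.08 and 0.08). Of all probe sets, 49.7% were higher in Ts65Dn cortex, 59.3% in hippocampus (61.8% without TS18) and 54.5% in cerebellum. In the same order of regions this share was 44.5%, 46.5% and 43.6% in Ts1Cje and 46.6%, 45.2% and 45.1% in Dp16. In Ts1Cje hippocampus 10.3% of all probe sets had an unadjusted P below 0.05 and 0.316% were DEX. Of 11 astrocyte markers in Ts65Dn, 4 were higher in cortex, 5 in hippocampus (5 also without TS18) and 1 in cerebellum, and none was called DEX or MDG. The summed linear signal of the 11 astrocyte markers was 9878 to 10667 in euploid and 9686 to 10551 in trisomic cortex. Markers of other cell types also differed in Ts65Dn. In hippocampus 10 of 10 oligodendrocyte markers were higher (median 0.24, and 10 of 10 without TS18, median 0.10), as were 6 of 8 markers of pericytes and smooth muscle (0.19, and 7 of 8 without TS18, 0.13), whereas 0 of 10 choroid plexus markers were (-0.74, and 0 of 10 without TS18, -0.45). In cerebellum 8 of 10 choroid plexus markers were higher (median 0.25), 4 of them MDG, beside 1.6% of all probe sets MDG. In cortex 7 of 10 were higher (0.06), 1 of them MDG, beside 1.47% of all probe sets. The part of any of these cell types in the Slc38a5 values was not tested.

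Slc38a2 (SNAT2), the amino acid sensitive glutamine carrier of most cells, had negative log2 changes in all 4 tissues of Ts1Cje and of Dp16 and in Ts65Dn forebrain, and positive ones in the 3 adult Ts65Dn regions, none of them called DEX. The changes were -0.08, -0.18, -0.16 and -0.10 in Dp16 forebrain, cortex, hippocampus and cerebellum, -0.16 in Ts1Cje cerebellum, and -0.08 in Ts65Dn forebrain (-0.09 without TS01, unadjusted P = 0.0315, adjusted p = 0.749). In Ts1Cje forebrain it was 12.24, 12.22, 12.25, 12.18 and 12.32 in euploid and 12.17, 12.11, 12.16, 12.14 and 12.15 in trisomic embryos. The groups did not overlap, and the log2 change was -0.09 ± 0.03 (adjusted p = 0.725). In Ts1Cje hippocampus Slc38a2 was 10.08, 10.21, 10.06, 10.00 and 9.97 in euploid and 9.75, 10.04, 10.02, 9.57 and 9.70 in trisomic animals (log2 change -0.25 ± 0.09, adjusted p = 0.701), with overlap. In Ts1Cje cortex it was 9.96, 9.51, 10.12, 10.23 and 10.13 in euploid and 9.76, 9.97, 9.70, 9.65 and 9.75 in trisomic animals (log2 change -0.22 ± 0.13, adjusted p = 0.836). The low euploid value came from Eup347, and without that library the log2 change was -0.34 and Slc38a2 was MDG (adjusted p = 0.329), with 1.65% of all probe sets MDG.

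Slc38a10, a carrier of neutral amino acids in neurons, was 7.74, 7.92, 7.80, 7.91 and 7.90 in euploid and 7.70, 7.71, 7.72, 7.67 and 7.55 in trisomic Dp16 hippocampus. Its groups did not overlap, and the log2 change was -0.19 ± 0.06 (adjusted p = 0.647). In Ts1Cje cortex Slc38a10 was 7.88, 7.85, 7.92, 7.76 and 7.81 in euploid and 7.62, 7.59, 7.76, 7.69 and 7.80 in trisomic animals, a log2 change of -0.15 ± 0.08 (adjusted p = 0.821).

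Slc38a4 (SNAT4), best known from liver and placenta, was 4.72, 4.89, 4.61, 4.63 and 4.67 in euploid and 4.41, 4.46, 4.66, 4.46 and 4.25 in trisomic Dp16 cortex. TS277 lay within the euploid range, and the log2 change of Slc38a4 was -0.25 ± 0.09 (adjusted p = 0.670). In Ts65Dn forebrain the library TS01 had a Slc38a4 signal of 9.63 while the other 12 embryos lay between 6.27 and 7.38, and it had the highest summed signal of meningeal and fibroblast markers. The log2 change of Slc38a4 there was 0.22 with TS01 and -0.23 without it, with unadjusted P values above 0.05.

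Slc38a8, a glutamine carrier of the eye and brain, was 5.85, 6.11, 5.99, 5.78 and 6.24 in euploid and 5.86, 5.73, 5.80, 5.82 and 5.71 in trisomic Dp16 cerebellum (log2 change -0.21 ± 0.09, adjusted p = 0.779). In Ts65Dn hippocampus its log2 change was 0.29 ± 0.16 (adjusted p = 0.834), and 0.37 ± 0.16 without TS18 (adjusted p = 0.758). Slc38a11 was 6.13, 6.28 and 6.44 in euploid and 5.93, 6.15 and 6.27 in trisomic Dp16 forebrain (lowest, median and highest of 6; log2 change -0.16 ± 0.07, adjusted p = 0.792). The groups overlapped in each of these. The remaining Slc38a genes, Slc38a1, Slc38a3, Slc38a6, Slc38a7 and the lysosomal arginine sensor Slc38a9, had log2 changes between -0.27 and 0.17 and unadjusted P values above 0.05 in all 12 comparisons.

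Slc43a1 (LAT3), a carrier of branched-chain amino acids, was 4.61, 5.01, 4.51, 4.76 and 4.80 in euploid and 4.98, 4.91, 5.19, 5.22 and 4.92 in trisomic Ts65Dn hippocampus. Eup16 lay among the trisomic values, and the log2 change was 0.30 ± 0.11, an FC of 1.23 called MDG (adjusted p = 0.709), and 0.32 without TS18. In Dp16 cerebellum Slc43a1 was 4.81, 5.26, 5.04, 4.76 and 5.33 in euploid and 4.66, 4.79, 4.89, 4.94 and 4.74 in trisomic animals, an overlapping log2 change of -0.23 ± 0.11 (adjusted p = 0.815). Slc43a2 (LAT4), Slc43a3 and the opposite strand gene Slc7a6os had unadjusted P values above 0.05 in all 12 comparisons.

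Dp16 forebrain depended most on 1 library. With all 12 embryos no member was MDG, and without Eup13 5 were, namely Slc7a5, Slc7a11, Slc36a2, Slc36a3 and Slc38a10. Without Eup13 the share of all probe sets called MDG rose from 1.96% to 11.1%, so the count of members followed the table as a whole. The median SD between animals of a group was 0.22 over the members there, the highest of the 12 tables, and 0.17 over all probe sets, which was exceeded in Ts1Cje cortex (0.19) and Ts65Dn hippocampus (0.18).

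The trisomy effect was also compared between the adult regions of each model, with the animal as a random block because the same males gave all regions. No member was called in the 9 contrasts, and 0.00628% of all probe sets were. For Slc38a5 in Ts65Dn the effect in cortex minus that in hippocampus was -0.01 ± 0.14, and in cortex minus cerebellum 0.08 ± 0.14. The approximate 95% intervals of these differences were -0.28 to 0.27 (-0.30 to 0.28 without TS18) and -0.19 to 0.36, so equal effects were not shown.

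Between 21 and 24 of the 36 genes had a mean signal above the median of all probe sets in each table. Brightness depends on the probes, so the genes are not ordered by abundance here and each is described against itself. Across every one of the 12 tables, 18 genes were above the median, among them Slc3a2, Slc7a5, Slc7a8, Slc38a1, Slc38a2, Slc38a3 and Slc38a9. In none were Slc3a1, Slc36a2, Slc36a3, Slc38a4, Slc38a8, Slc38a11, Slc7a7, Slc7a9, Slc7a12, Slc7a13 and Slc7a15, for which absence was not measured. Slc38a5 was above it in the 3 forebrain tables and in Ts65Dn hippocampus. By rank, Slc7a8 lay at percentile 63.8 to 95.1 and Slc7a14 at 57.0 to 97.3, with their lower values in embryos, and Slc38a5 at 39.9 to 69.3, with its higher values in embryos. These ranks come from tables normalised separately, so they describe each table. A change with age was not tested.

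**Figure D5:**
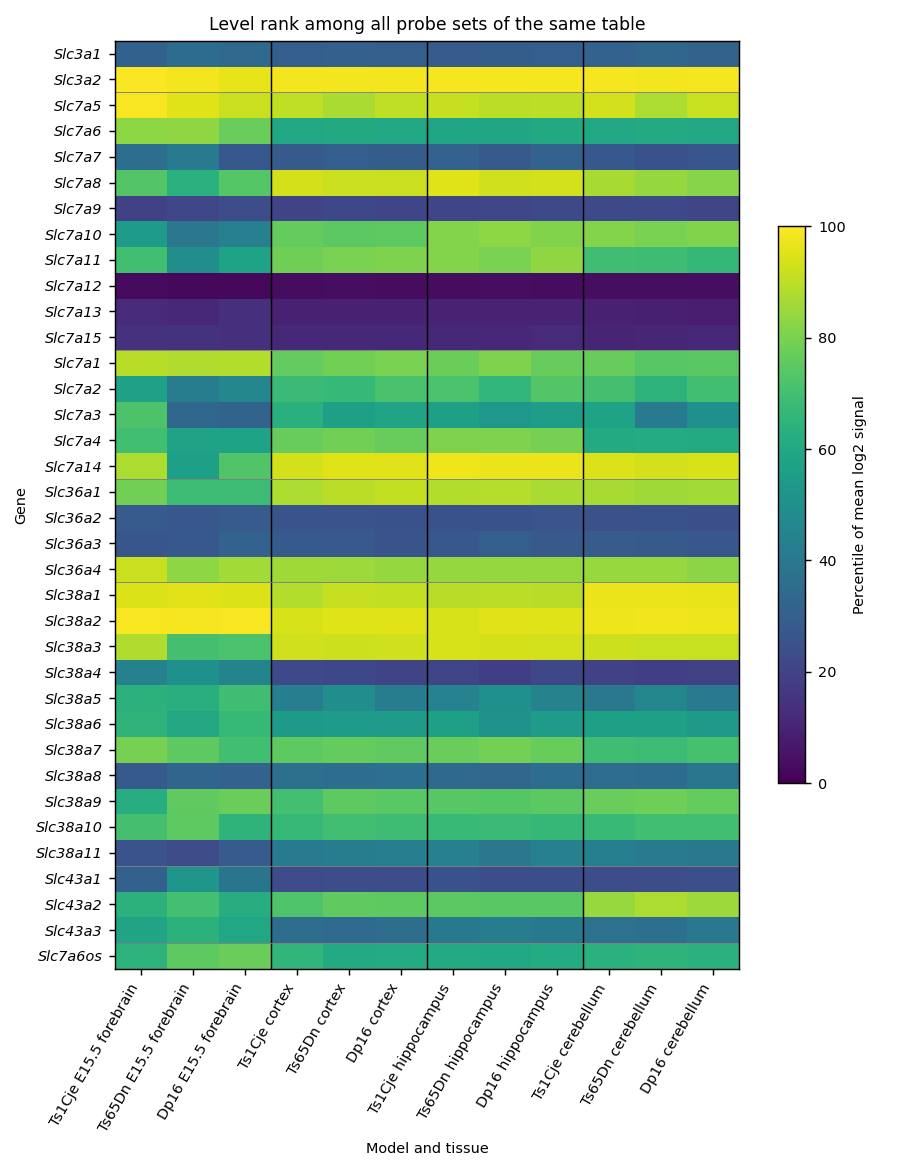
Percentile of each gene's mean log2 signal among all 21225 probe sets of the same table (colour), by gene (rows) and by model and tissue (columns), to be read along a row because brightness differs between probes. Slc38a2 stays between percentiles 93.8 and 99.0, and Slc7a12 between 2.0 and 3.8. The tables were normalised separately, so a row describes ranks and shows no tested change.

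Genes of related amino acid transport were listed for comparison, and limma called none of them DEX in any of the 12 comparisons. Over the 12 comparisons together, the MDG calls were 1 among 7 Slc1 genes, 2 among 16 Slc6 genes, 2 among 4 vesicular transporters, 1 among 4 aromatic amino acid and cystine exporters, 0 among 9 mitochondrial carriers, 0 among 28 amino acid response genes and 1 among 24 genes of amino acid sensing by mTORC1, all of them higher in trisomic animals. Together these were 7 calls in 1104 tests (0.634%), beside 3979 in 254700 (1.56%) over all probe sets, of which 74.2% were higher. The 2 vesicular calls were 2 of 48 tests. The glycine transporter Slc6a5 was 8.04 to 8.41 in euploid and 8.28 to 8.68 in trisomic Ts1Cje cerebellum (log2 change 0.36 ± 0.10, adjusted p = 0.389). The vesicular glutamate transporter Slc17a6 was 9.18 to 9.61 and 9.51 to 9.97 in the same tissue (0.33 ± 0.10, adjusted p = 0.555). Slc6a9, a glycine transporter of glia, was 10.39 to 10.59 in euploid and 9.94 to 10.29 in trisomic Dp16 cortex (-0.31 ± 0.08, adjusted p = 0.399), without overlap.

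The aromatic amino acid transporter Slc16a10 was 5.58 to 6.07 and 5.95 to 6.37 in Ts65Dn cerebellum (0.34 ± 0.10, adjusted p = 0.535). The arginine sensor Castor1 was 5.31 to 5.61 in euploid and 5.60 to 6.02 in trisomic Ts65Dn hippocampus (0.31 ± 0.10, adjusted p = 0.586, and 0.25 ± 0.09 without TS18, adjusted p = 0.660). Slc1a5 (ASCT2), a glutamine exchanger, was 5.20 to 5.35 and 5.34 to 5.70 in Ts1Cje hippocampus (0.26 ± 0.07, adjusted p = 0.418). The stress gene Ddit4 had the lowest P of the amino acid response genes, at 7.89 to 8.17 and 7.66 to 7.92 in Ts1Cje cerebellum (-0.31 ± 0.08, adjusted p = 0.298). The others named by the same rule, Slc1a7, Slc17a7, Slc25a12, Slc25a22, Slc15a4, Sesn2 and Mtor, had adjusted p values between 0.601 and 0.776. Among them Slc15a4 was named in Ts65Dn hippocampus (0.23 ± 0.10, adjusted p = 0.776, and 0.21 ± 0.10 without TS18, adjusted p = 0.799).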

How the data were processed

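Total RNA was labelled and hybridised to Affymetrix mouse gene arrays. The deposited log2 signals were made by the authors with RMA (background correction, quantile normalisation and summarisation of probes), separately for each model and tissue, and per the labels only RNA of high integrity was used. No sequencing depth applies, and the number of animals limits the precision. Probe sets, named by Entrez gene ID, were matched to RefSeq symbols (20768 of 21225 named). Groups, sex and animal numbers came from the titles and labels, and 3 repeat arrays of 2 animals were averaged.

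Trisomic and euploid arrays were compared in each of the 12 tables with limma 3.58.1 in R 4.3.3 (two-sided), with Benjamini-Hochberg adjustment over 254700 P values, and single genes also with an exact permutation test of the difference of means. Effects were compared between models (12 contrasts) and between regions (9 contrasts) as differences of within-table effects. Regions were paired because the titles give the same animal numbers in the 3 regions, deviations of the same animal in 2 regions correlated between -0.40 and 0.60 over the members, and the duplicate correlations were 0.061 in Ts1Cje, 0.077 in Ts65Dn and 0.069 in Dp16. Scripts were tested on simulated data. Alternatives were the methods' t-test, other adjustments, FDR limits of 5% and 20%, array weights, renormalisation, a filter on dim probe sets, sex as a covariate and leaving out each animal. Values per animal were given for members called DEX or MDG, those with an unadjusted P below 0.05 in at least 3 comparisons, and the 2 with the lowest P in each comparison, and from each other list for up to 2 genes with the lowest P. Sets of animal numbers, the genes shown for them and other named values, and the alternatives with these sets as a covariate, a separate spread for each model or marker values without TS18, were chosen after seeing the data. Members and lists were chosen with earlier results of these data known. Promoters are from RefSeq on GRCm38.p6.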

Additional observations from a re-analysis of the deposited data

Results flagged for a closer look

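Of 52 groups of 4 to 10 animals tested among the named genes, 2 had an extreme value by Dixon's criterion, where chance marks about 1 group in 20. Slc3a1 was at 7.13 in the euploid Dp16 forebrain library Eup13, with the next at 6.67. Slc38a5 was at 5.78 in the euploid Ts65Dn cerebellum library Eup6, with the next at 6.12. The trisomy effect on Slc38a5 in cerebellum differed between Ts1Cje and Ts65Dn by -0.65 on the log2 scale, by the test of the difference itself (adjusted p = 0.0576 by limma).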

How the results depend on the processing

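For the log2 changes of the named genes, in the comparisons that named them, 387 alternatives were labelled the same, 11 stronger and 59 weaker. In 0 the direction was reversed. These labels are not DEX or MDG calls, which most of the named genes did not have. Slc38a5 in Ts65Dn cerebellum was labelled the same with each animal left out, although it passed the DEX limit without TS5 (adjusted p = 0.0607 by limma). Slc7a10 in Dp16 cortex, which was not called, was labelled weaker in 6 of 10 cases. The median over the members, which is close to 0, changed sign in Ts1Cje cortex (0.03 to -0.01 without Eup347) and Ts65Dn cortex (0.01 to -0.0003 without TS18), and Slc38a4 in Ts65Dn forebrain went from 0.22 to -0.23 without TS01. In Ts65Dn the members called DEX fell from 1 to 0 in forebrain and in cortex with the methods' t-test and when dim probe sets, which include Slc3a1 and Slc38a5, were left out. In Ts65Dn hippocampus they were 0 with the methods' t-test, with adjustment within the comparison and at an FDR limit of 5%. In Ts65Dn cerebellum 1 member was DEX with adjustment within the comparison, with array weights and at an FDR limit of 20%, and in Ts1Cje cerebellum 1 with array weights. With symmetric fold limits 1 member was MDG in Dp16 forebrain. The members whose effect differed between models were 2 with a separate spread for each model, an alternative chosen after seeing the data, and 4 with array weights. The causes were not tested, except that the filter removed the called genes.

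With each animal left out, the members called DEX ranged from 0 to 1 in Ts65Dn forebrain, hippocampus and cerebellum. Members called MDG ranged from 1 to 2 in Ts65Dn forebrain and cerebellum, from 2 to 3 in Ts65Dn cortex, from 2 to 4 in Ts65Dn hippocampus, from 0 to 5 in Dp16 forebrain, and from 0 to 1 in Ts1Cje cortex and Dp16 hippocampus. Members that differed between models ranged from 0 to 2. With no replicate block the members whose effect differed between regions were 0, as with the block and with paired differences, so the pairing changed no call. Dim probe sets can limit the size of a change that hybridisation shows, which was not measured here.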
